A study of Drosophila melanogaster with 11 samples.

Results

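Zfh1-positive cells of the proximal wing disc were compared between 3 Drop-seq libraries labelled 1151>Ama-RNAi and 4 libraries of the control 1151>mCherry-RNAi. Members were chosen by the measured values of 5 genes, and each held at least 1 transcript of zfh1 and 0 transcripts of the epithelial genes Fas3, grh, ImpE1 and ImpE2 together. Drop-seq captures single cells in droplets with barcoded beads, and a unique molecular identifier (UMI) on each captured transcript lets molecules be counted in place of reads. Of 10907 cells with 200 to 2500 detected genes in the 7 libraries, 829 were members, 753 of 6863 cells in the control libraries and 76 of 4044 in the libraries labelled 1151>Ama-RNAi. The whole series held 26085 such cells in 11 libraries, the remaining 4 being of 1151-GAL4 alone.

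All animals were Drosophila melanogaster larvae of the third instar, at the wandering stage, grown at 25 °C, and the wing pouch had been cut away so that notum and hinge remained. Every genotype carried the driver 1151-GAL4, which is active in the myoblasts. The control libraries (replicates 1, 5, 6 and 7) carried a hairpin against mCherry besides, a sequence the fly does not have, and the knockdown libraries (replicates 1, 4 and 5) carried the TRiP hairpin HMS00297 against Ama. The labels give no shared day or batch and do not say how many discs made a library. All p-values take these libraries as the replicates, and those of edgeR use a spread that is pooled in part over genes.

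The adult flight muscles arise from myoblasts that lie beneath the epithelium of the notum. The transcription factors Zfh1, Twist and Mef2 and the repressor Him mark these cells, and Notch signalling holds them undifferentiated. Myoblasts of the indirect flight muscles carry Vestigial (vg), whereas those of the direct flight muscles carry high Cut (ct). Amalgam (Ama) is a secreted protein of the immunoglobulin superfamily that binds the transmembrane protein Neurotactin (Nrt).

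The targeted gene did not pass the test in the libraries labelled 1151>Ama-RNAi. Ama (3R:6762593-6765261, plus strand, BDGP6) was at 33.4, 161, 176 and 152 CPM (its UMIs scaled to 1000000 UMIs of the members of a library) in control replicates 1, 5, 6 and 7, and at 144, 336 and 260 in replicates 1, 4 and 5 of the libraries labelled 1151>Ama-RNAi. The log2 fold change was 0.81 ± 0.52 (SE), with an adjusted p of 0.572 in the quasi-likelihood test of edgeR, adjusted by Benjamini-Hochberg over all genes tested. It was found in 7.44% and 18.4% of members as counted, and at 400 UMIs per cell the expected shares per library, 2.29% to 5.61% and 1.41% to 9.38%, overlapped. These levels rest on 73 and 17 UMIs, the counts come from transcript 3′ ends, and the position of the hairpin's target is not given, so that the label was not checked by this gene. Nrt, its binding partner, was between 188 and 231 CPM in control and between 48.1 and 86.7 in the other libraries, and it did not pass the test (log2 fold change -1.57 ± 0.56, adjusted p = 0.161 by edgeR).

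Zfh1-positive cells took a smaller share of every library labelled 1151>Ama-RNAi than of any control library. They were 78, 221, 139 and 315 cells in the control libraries, or 11.2%, 14.7%, 7.68% and 11.0% of the cells. They were 21, 17 and 38 cells in the libraries labelled 1151>Ama-RNAi, or 1.35%, 1.99% and 2.33%. The mean share was 11.2% ± 2.87 (SD, n = 4) against 1.89% ± 0.494 (n = 3), a ratio of 5.91. The 2 groups did not overlap, and the exact two-sided permutation test over libraries gave p = 0.0571, the smallest that 3 libraries against 4 allow (0.0857 adjusted over 15 measures of cells). In 1151-GAL4 the share was between 13.0% and 17.6%.

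Against the epithelium of the same libraries the ratio was 8.23. There were 18.7 ± 7.21 members per 100 epithelial cells in control and 2.27 ± 0.563 in the libraries labelled 1151>Ama-RNAi, where epithelial cells are those with a UMI of the 4 epithelial genes and none of zfh1. With zfh1 at 2 or more UMIs the shares were 4.52% ± 1.32 and 0.727% ± 0.484, and with each cell thinned to 400 UMIs they were 10.1% ± 2.21 and 1.35% ± 0.558. A share of a library cannot tell fewer myoblasts from more epithelial cells per disc.

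**Figure D1:**
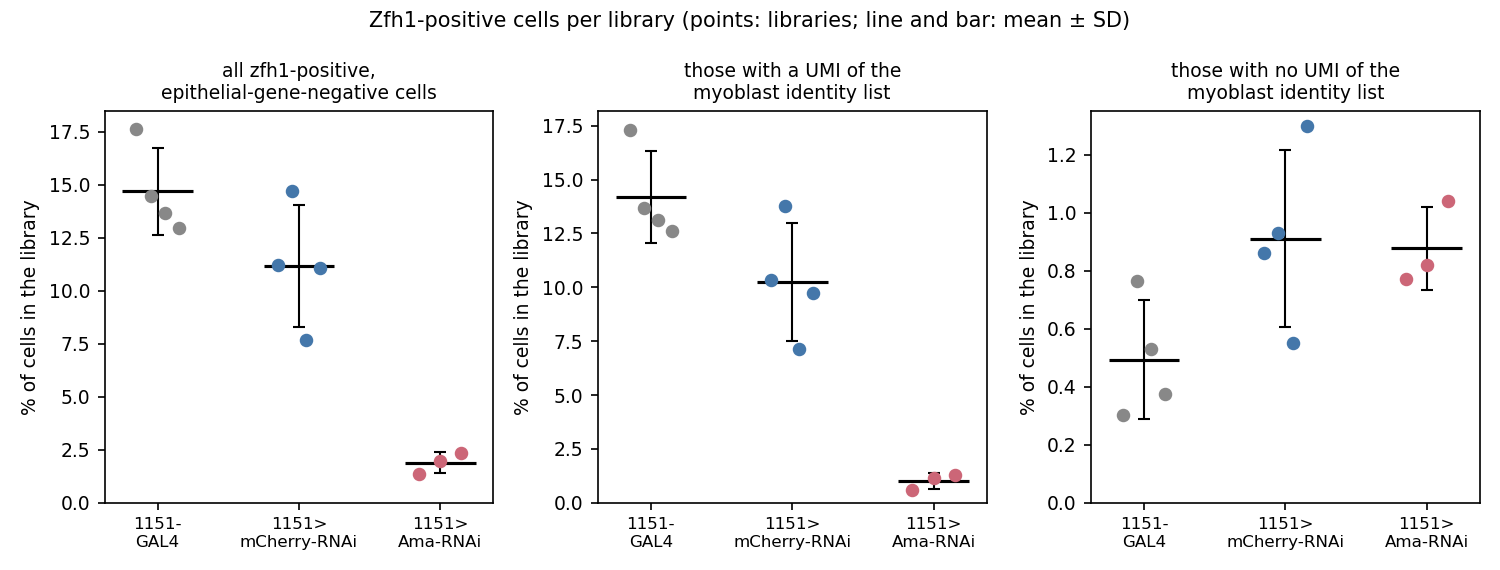
Zfh1-positive cells as a percentage of the cells of each library (y axis), for all members, those with a UMI of the myoblast identity list and those without one; points are libraries, lines and bars the mean and SD. All members were at 1.35% to 2.33% in the libraries labelled 1151>Ama-RNAi and at 7.68% to 14.7% in 1151>mCherry-RNAi, whereas members without a myoblast UMI were at 0.772% to 1.04% and 0.552% to 1.30%.

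The gate was set on zfh1 (3R:30765926-30789202, plus strand) and the 4 epithelial genes, and their values are given as a description. Just inside it, 461 control members and 46 members labelled 1151>Ama-RNAi had a single zfh1 UMI. Just outside it lay 1410 and 548 cells with no UMI of any of the 5 genes, and 225 and 21 cells with zfh1 and a single epithelial UMI. Within members zfh1 was at 2034 to 2777 CPM in control and at 1396, 2282 and 2225 in the libraries labelled 1151>Ama-RNAi.

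Droplets also take up free RNA. Among cells with an epithelial UMI, zfh1 was found in 4.92% to 10.7% of the cells of control libraries and in 1.39% to 2.26% of those labelled 1151>Ama-RNAi. Among cells without an epithelial UMI it was found in 30.5% to 38.3% and in 8.02% to 17.5%. Both shares are measured on the genes that chose the members and are given as a description. Of the cells with zfh1 and an epithelial UMI, 225 of 377 in control and 21 of 60 labelled 1151>Ama-RNAi held a single epithelial UMI. These cells need not be epithelial, so that the first share is no measure of free zfh1 RNA alone. Barcodes with fewer than 100 UMIs, which mostly hold free RNA, had zfh1 at 249 to 425 CPM in control and at 40.8 to 73.6 in the other libraries. How far free RNA contributes to membership was not tested. Members had a median of 488 to 715 UMIs in control and of 676 to 745 in the libraries labelled 1151>Ama-RNAi (exact permutation p = 0.171), and epithelial cells of 516 to 753 and of 715 to 725. No member barcode was shared between libraries.

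The members that remained differed in make-up. The myoblast identity list holds 10 genes (twi, Him, Mef2, BM-40-SPARC, CG9650, Ef1alpha100E, trol, babos, htl and stumps). At least 1 UMI of this list was found in 686 of 753 control members (91.1%) and in 40 of 76 members labelled 1151>Ama-RNAi (52.6%), against a background of 25.7% and 17.0% in epithelial cells. The shares per library were 88.3% to 93.7% and 42.9% to 58.8%, which did not overlap. The expected shares at 400 UMIs per cell were 84.7% of 588 and 31.7% of 64 members.

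The 2 kinds were also counted against all cells of a library. Members with a UMI of the list were 10.2% ± 2.73 of control cells and 1.01% ± 0.378 of the cells labelled 1151>Ama-RNAi, a ratio of 10.1. Members without one were 0.910% ± 0.306 and 0.877% ± 0.144, with overlapping libraries. This second kind was rare in both groups, 67 and 36 cells, and had fewer UMIs (median 412 and 526.5) than members with a myoblast UMI (median 587 and 913). Of these cells, 24 of 67 in control and 1 of 36 labelled 1151>Ama-RNAi had vg, and 54 and 15 had hth. In the other direction, 17 and 19 had ct, 2 and 13 had tnc, and 0 and 14 had CG45263. The content of this kind thus differed between groups, although its share of the cells overlapped. Since transcripts of the list were fewer in members labelled 1151>Ama-RNAi, a cell that lost them counts among those without, and the ratios do not locate the difference in 1 kind of cell.

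Him (X:18209427-18210741, plus strand), which keeps myoblasts from differentiating, was found in 379 of 753 control members (50.3%, exact binomial 95% interval 46.7 to 54.0) and in 10 of 76 members labelled 1151>Ama-RNAi (13.2%, 6.49 to 22.9). The intervals cover counting error only. The background in epithelial cells was 6.64% and 0.208%. Among members with 2 or more zfh1 UMIs, Him was found in 160 of 292 (54.8%) and in 1 of 30 (3.33%). The same restriction gave a UMI of the whole list in 94.2% and 60.0%, and all these shares rest on the gene that chose the members.

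The balance of ct and vg was different as well. The gene vg alone was found in 234 control members (31.1%) and in 7 members labelled 1151>Ama-RNAi (9.21%). The gene ct alone was found in 102 (13.5%) and 37 (48.7%), both genes in 110 (14.6%) and 1 (1.32%), and neither in 307 (40.8%) and 31 (40.8%). The background in epithelial cells was 16.3% and 10.7% for vg and 7.31% and 4.70% for ct.

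Measured against all cells, vg-positive members were 5.22% ± 1.99 in control and 0.220% ± 0.145 in the libraries labelled 1151>Ama-RNAi, a ratio of 23.7. Members with ct and no vg were 1.42% ± 0.328 and 0.896% ± 0.237, and these libraries overlapped, whereas per 100 epithelial cells they were 2.36 ± 0.794 and 1.08 ± 0.263 without overlap. All ct-positive members were 3.05% ± 1.12 and 0.918% ± 0.214 of the cells, a ratio of 3.33 without overlap. Depth bears on the share of ct, which was 23.1% to 30.8% of control members and 41.2% to 57.1% of members labelled 1151>Ama-RNAi as counted. At 400 UMIs per cell the expected shares were 13.2% to 21.4% and 15.8% to 36.6%, and the groups overlapped. For vg the expected shares were 28.7% to 37.8% and 3.21% to 18.6%, without overlap. Of the 38 ct-positive members labelled 1151>Ama-RNAi, 19 had no UMI of the myoblast list, against 17 of 212 in control. The study also reports high ct in sensory organ precursors and in tracheoblasts of the spiracular branches. It found no direct flight muscle myoblasts by staining discs with the Ama hairpin. Which cells the ct-positive members are was not tested.

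**Figure D2:**
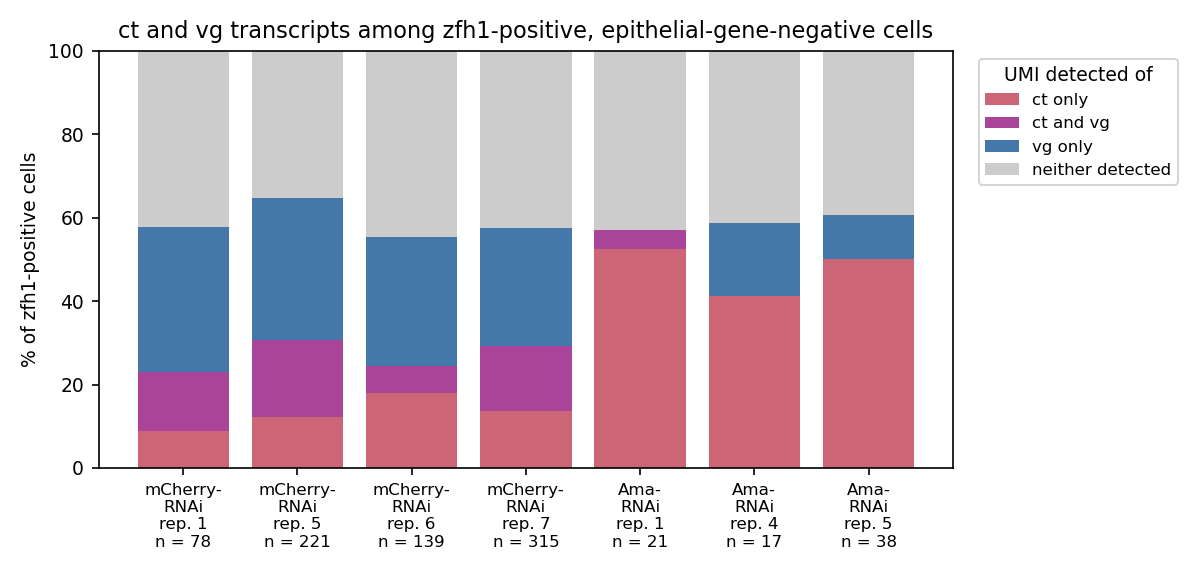
Percentage of the members of each library (y axis) with a UMI of ct only, of both ct and vg, of vg only, or of neither; n is the number of members. Cells with ct only made up 41.2% to 52.4% of members in the libraries labelled 1151>Ama-RNAi and 8.97% to 18.0% in 1151>mCherry-RNAi, as counted and without equal depth.

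To compare expression, UMIs of the members were summed per library. A fall or rise of such a sum cannot be told apart from a change in the mix of cells among the members. The sums were between 59860 and 179914 UMIs in control and were 20779, 14901 and 34599 in the libraries labelled 1151>Ama-RNAi, which limits the test to well expressed genes. Of 816 genes tested, 18 (2.21%) passed an adjusted p below 0.05 in edgeR's quasi-likelihood test. Of these, 13 (1.59%) were lower and 5 (0.613%) higher in members labelled 1151>Ama-RNAi. The filter on low counts could admit a gene on the counts of 1 group alone, on either side. Libraries did not overlap for 77 genes on the lower side (9.44%) and 46 on the higher side (5.64%). DESeq2 called 7 lower and 5 higher. The number called rested on single libraries, with 45 called without control replicate 1, 10 without replicate 1 and 7 without replicate 5 of the libraries labelled 1151>Ama-RNAi. The median log2 fold change of all tested genes was -0.02.

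**Figure D3:**
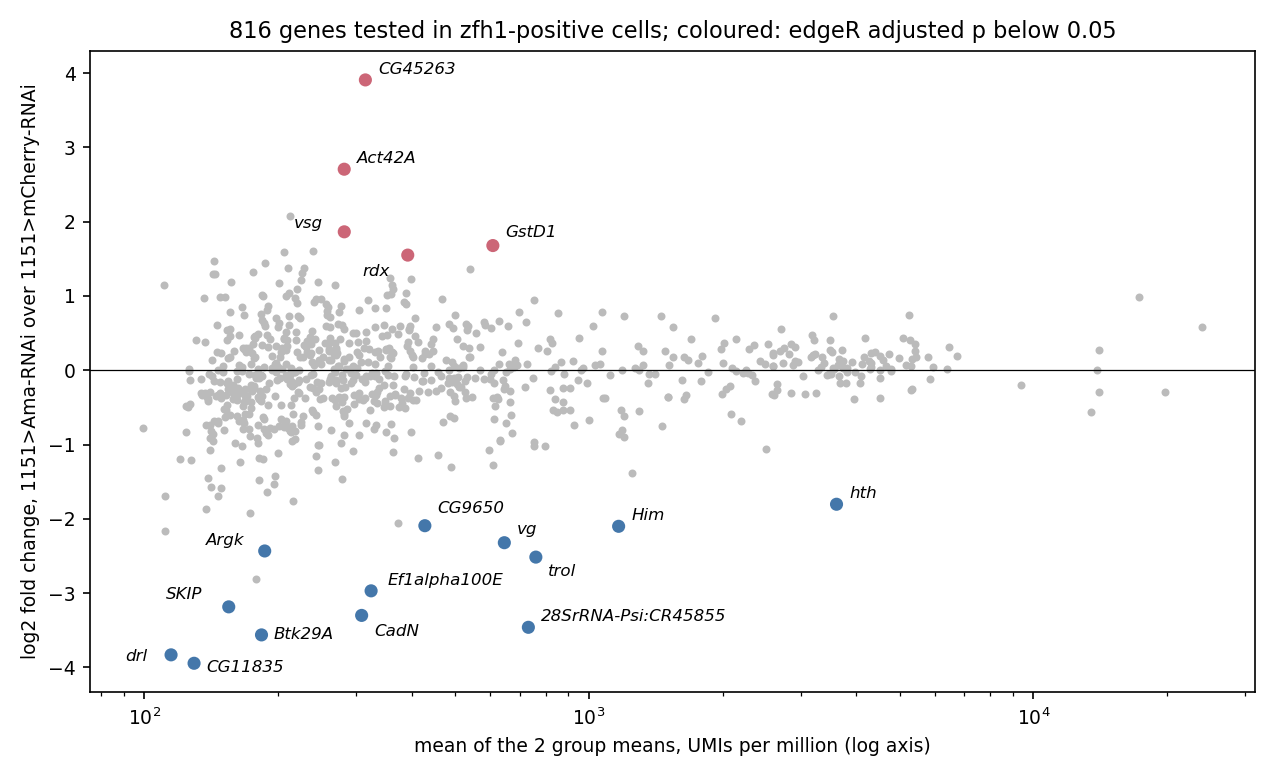
Log2 fold change of 1151>Ama-RNAi over 1151>mCherry-RNAi (y axis) against the mean of both group means in CPM (x axis, log scale) for the 816 genes tested in the members; coloured points passed an adjusted p below 0.05. The 13 lower genes include hth at -1.80 and CadN at -3.30, and CG45263 at 3.91 is the largest rise.

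Some genes of myoblast identity were lower in these sums. Of the 10 genes on the list 7 could be tested, 4 of them passed, all lower, and the median was -2.09. The list was chosen with results of these data known. The summed level of the list was 4811 to 6732 CPM in control members and 674 to 2215 in members labelled 1151>Ama-RNAi.

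Him was at 3124, 1795, 950 and 1812 CPM in control and at 48.1, 470 and 723 in the libraries labelled 1151>Ama-RNAi (log2 fold change -2.10 ± 0.50, adjusted p = 0.0288 by edgeR). The perlecan gene trol (X:2470460-2545427, minus strand), which encodes a proteoglycan of the basement membrane, was at 1036, 1384, 1326 and 1349 and at 0, 537 and 202 (-2.52 ± 0.49, adjusted p = 0.00625 by edgeR). In both genes every control library stood above every library labelled 1151>Ama-RNAi. Ef1alpha100E, a translation elongation factor, was at 485 to 650 and at 0, 134 and 86.7 (-2.97 ± 0.53), and CG9650, a zinc finger gene, at 434 to 974 and at 0, 336 and 173 (-2.09 ± 0.53).

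The other genes of the list did not pass. The mesodermal regulator twi was at 150, 239, 117 and 260 CPM in control and at 0, 201 and 57.8 in the libraries labelled 1151>Ama-RNAi (-1.45 ± 0.70, adjusted p = 0.347 by edgeR). Its groups overlapped, and only 5 UMIs stood behind the latter values. BM-40-SPARC, which binds collagen, was at 322 to 367 and at 134 to 260 (-0.61 ± 0.38), and babos at 188 to 802 and at 260 to 337 (-0.41 ± 0.51). Mef2, htl and stumps were below the filter on low counts, with Mef2 at 78 UMIs in control and 2 in the libraries labelled 1151>Ama-RNAi.

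The largest number of UMIs behind a fall belonged to hth (3R:10507561-10639568, minus strand), the homeodomain partner of Extradenticle. It was at 6148, 3996, 6172 and 6288 CPM in control and at 1444, 1342 and 1908 in the libraries labelled 1151>Ama-RNAi (-1.80 ± 0.28, adjusted p = 0.000988 by edgeR). The gene was found in 92.4% and 57.9% of members. The N-cadherin gene CadN (2L:17647053-17778340, minus strand), which mediates cell adhesion, was at 518 to 623 and at 48.1, 0 and 86.7 (-3.30 ± 0.52, adjusted p = 0.000988). No library of either gene lay within the range of the other group.

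Of the 14 genes of the indirect flight muscle list 11 were tested, and 1, vg, passed. It was at 1119, 973, 962 and 1163 CPM in control and at 96.3, 470 and 145 in the libraries labelled 1151>Ama-RNAi (-2.32 ± 0.42, adjusted p = 0.00326 by edgeR). The median of the list was -0.56. Con, which encodes the adhesion protein Connectin, was at 167 to 563 and at 0 to 67.1 without passing (-2.81 ± 0.76, adjusted p = 0.0608).

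Of the 13 genes of the direct flight muscle list 6 were tested, and 1 passed, Argk, the arginine kinase gene, which was lower. It was at 258 to 401 CPM in control and at 96.3, 0 and 57.8 in the libraries labelled 1151>Ama-RNAi (-2.43 ± 0.60, adjusted p = 0.0355 by edgeR). The selector gene ct (X:7608428-7678859, plus strand) was at 434, 556, 528 and 627 and at 722, 604 and 1590 (0.95 ± 0.32, adjusted p = 0.133). Replicate 5 stood above the others, and replicate 4 lay within the control range. The list's median was 0.56, and the actin genes Act57B and Act87E had 31 and 29 UMIs in control and 0 in the libraries labelled 1151>Ama-RNAi.

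Further genes that were lower and did not overlap included Btk29A, a tyrosine kinase (217 to 446 against 0, 0 and 57.8 CPM, log2 fold change -3.56 ± 0.71), and drl, a receptor of Wnt5 (100 to 300 against 48.1, 0 and 0, -3.83 ± 0.97). CG11835 (-3.95 ± 0.86) and SKIP (-3.19 ± 0.70) were lower as well. The ribosomal pseudogene 28SrRNA-Psi:CR45855 passed at -3.46 ± 0.85, but it was at 66.8 in control replicate 1 and at 1394 to 2207 in the other control libraries, so that the groups overlapped. Such a copy can share reads with other rRNA copies.

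**Figure D4:**
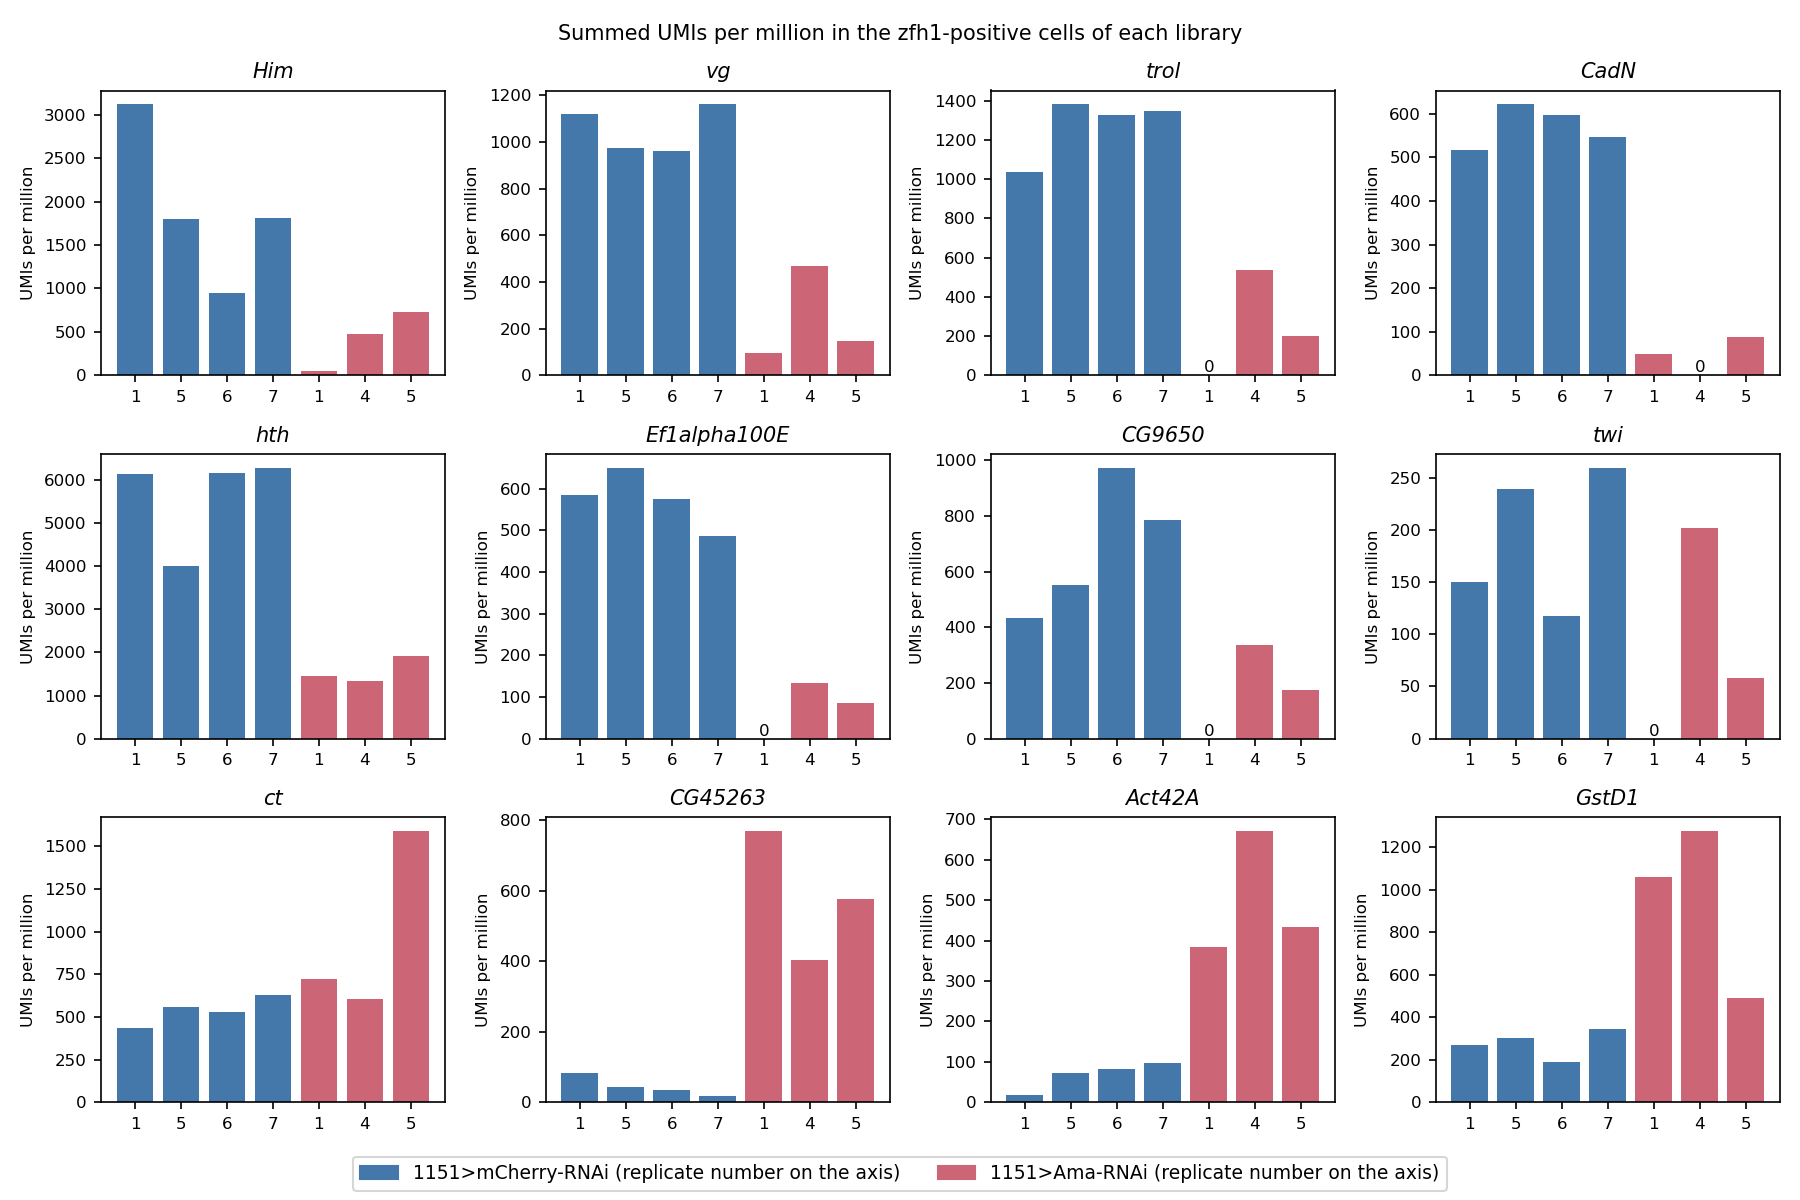
Summed CPM in the members of each library (y axis, from 0) for 12 genes; the number under each bar is the replicate. Him, vg, trol, CadN, hth, Ef1alpha100E and CG9650 were lower in all 3 libraries labelled 1151>Ama-RNAi, CG45263, Act42A and GstD1 were higher in all 3, and twi and ct overlapped between groups.

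Since the filter could admit a gene on 1 group alone, genes at low CPM in control may have entered through the group where they were high. This bears on CG45263, Act42A and vsg, and their p-values are given as a description. CG45263 (3R:8364328-8477617, minus strand) had the largest positive log2 fold change among the genes called. It had 5, 8, 3 and 3 UMIs in the control libraries and 16, 6 and 20 in the smaller libraries labelled 1151>Ama-RNAi, or 83.5, 44.5, 35.2 and 16.9 against 770, 403 and 578 CPM (3.91 ± 0.49, adjusted p = 9.22e-05 by edgeR). It was found in 15 control members (1.99%) and in 25 members labelled 1151>Ama-RNAi (32.9%). Among the 25, 16 had ct, 0 had vg, 0 had Him and 11 had a UMI of the myoblast list. Among the 15 control members, 12 had vg, 4 had ct and 15 had a UMI of that list. Of members labelled 1151>Ama-RNAi without CG45263 43.1% had ct, against 64.0% of those with it, which were deeper (median 821 against 638 UMIs), and only 8 of all 76 had vg. As a share of all cells the CG45263-positive members were 0.275% ± 0.164 and 0.611% ± 0.112, and per 100 epithelial cells they were 0.470 ± 0.314 and 0.736 ± 0.121, with overlap in the second measure.

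The other genes that rose were Act42A, a cytoplasmic actin (16.7 to 96.0 against 385, 671 and 434 CPM, log2 fold change 2.71 ± 0.46), the glutathione transferase gene GstD1 (188 to 344 against 1059, 1275 and 491, 1.68 ± 0.35), vsg (50.1 to 178 against 385, 604 and 376, 1.86 ± 0.45) and rdx (175 to 284 against 963, 268 and 491, 1.55 ± 0.39). The first 3 did not overlap between groups. The libraries of rdx, which encodes an adaptor of a ubiquitin ligase, did. Calls differed in how often they held in the alternatives that tested them, with CG9650 in 5 of 16, Argk in 5 of 13, drl in 4 of 10, vsg in 5 of 12 and rdx in 4 of 15.

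Notch targets did not pass in the main test. Of 11 genes of the E(spl) complex 5 were tested with 0 called and a median of -0.38, and of 13 Notch pathway genes 5 were tested with 0 called and a median of -0.46. E(spl)m6-BFM was at 869, 611, 258 and 796 CPM in control and at 48.1, 0 and 289 in the libraries labelled 1151>Ama-RNAi (-2.06 ± 0.59, adjusted p = 0.0848 by edgeR). This gene was called lower in 4 of 16 alternatives. E(spl)mbeta-HLH was at 739 to 3291 and at 722, 1074 and 2341 (-0.38 ± 0.43), and the receptor gene N at 934 to 1353 and at 529, 1007 and 694 (-0.53 ± 0.32).

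Of 10 basement membrane genes 4 were tested, and trol alone passed. The laminin genes LanA (83.5 to 172 against 231 to 403 CPM, 1.38 ± 0.46, adjusted p = 0.133 by edgeR) and LanB1 (50.1 to 169 against 336 to 434, 1.60 ± 0.46, adjusted p = 0.0890) did not pass, although their libraries did not overlap. Of 12 genes of cell death and JNK signalling 3 were tested, of 22 of the cell cycle 2, and of 10 surface receptors 4. None of them passed, and most of these genes could not be tested. All 7 genes of growth and the nucleolus were tested without a call. Of the 7, 6 had a negative log2 fold change, against 427 of all 816 genes tested. Of 22 genes of muscle fusion, attachment and sarcomere 2 were tested and 1, drl, was lower.

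Markers of other cell types were compared as whole lists. The summed level of 14 further epithelial genes was 484 to 634 CPM in control members and 433 to 805 in members labelled 1151>Ama-RNAi, against 2474 to 3197 in epithelial cells, and 1 of the 14 was tested, without a call. The 12 tracheal genes were at 70.4 to 90.3 and at 144 to 268, the latter from 13 UMIs with trh and btl at 0. The 13 hemocyte genes were at 35.2 to 50.1 and at 48.1 to 116, the latter from 6 UMIs with Hml, NimC1 and He at 0. Neuronal and glial genes were at 186 to 317 and at 48.1 to 336, and fat body genes were at 0 in members labelled 1151>Ama-RNAi. A UMI of the epithelial list was found in 28.4% and 43.4% of members, and of the tracheal list in 5.05% and 13.2%. Cells with a UMI of the epithelial or of the hemocyte list were left out in turn, which left 5 of 595 and 11 of 780 genes called. Without the former, all 5 were lower and 0 higher, and CG45263 was not among the genes tested. Its share of the members was then 2.39% ± 0.968 in control and 30.4% ± 19.4 in the libraries labelled 1151>Ama-RNAi. Without the latter, 8 were lower and 3 higher. The part of tracheal and neuronal transcripts in the gene differences was not tested.

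To ask which differences were particular to the members, the interaction of class and genotype was tested. It compares the effect in members with that in epithelial cells of the same libraries. The epithelial class can also hold myoblasts whose zfh1 was missed, and free RNA from myoblasts. Of 3615 genes 38 (1.05%) passed the quasi-likelihood test of edgeR after Benjamini-Hochberg adjustment. Since this test pools the spread over genes, its very small p-values do not measure the spread of a single gene between libraries. The fall of hth was larger in members, since epithelial cells were at a mean of 5651 CPM in control and 4648 in the libraries labelled 1151>Ama-RNAi (interaction -1.79 ± 0.19, adjusted p = 4.9e-18). The same held for trol (-2.04 ± 0.40), vg (-1.99 ± 0.40), Btk29A (-3.95 ± 0.71), SKIP (-3.80 ± 0.73), Argk (-2.95 ± 0.59) and drl (-3.71 ± 0.97).

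Him stood the other way round. In epithelial cells it fell from a mean of 128 to 2.32 CPM, by 5.59 on the log2 scale, and the interaction was 3.14 ± 0.53 (adjusted p = 1.53e-06 by edgeR). The relative fall was thus smaller in members than in the background of the same libraries. CG9650 (-2.97) and Ef1alpha100E (-1.58) were also lower in the epithelial class. Neither they nor CadN differed between classes by this test of edgeR (adjusted p = 0.843, 0.255 and 0.118). A UMI of Him was found in 6.64% of epithelial cells in control and in 0.208% of those labelled 1151>Ama-RNAi. Fewer myoblasts or less free RNA in that class cannot be told from a lower level in epithelial cells.

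**Figure D5:**
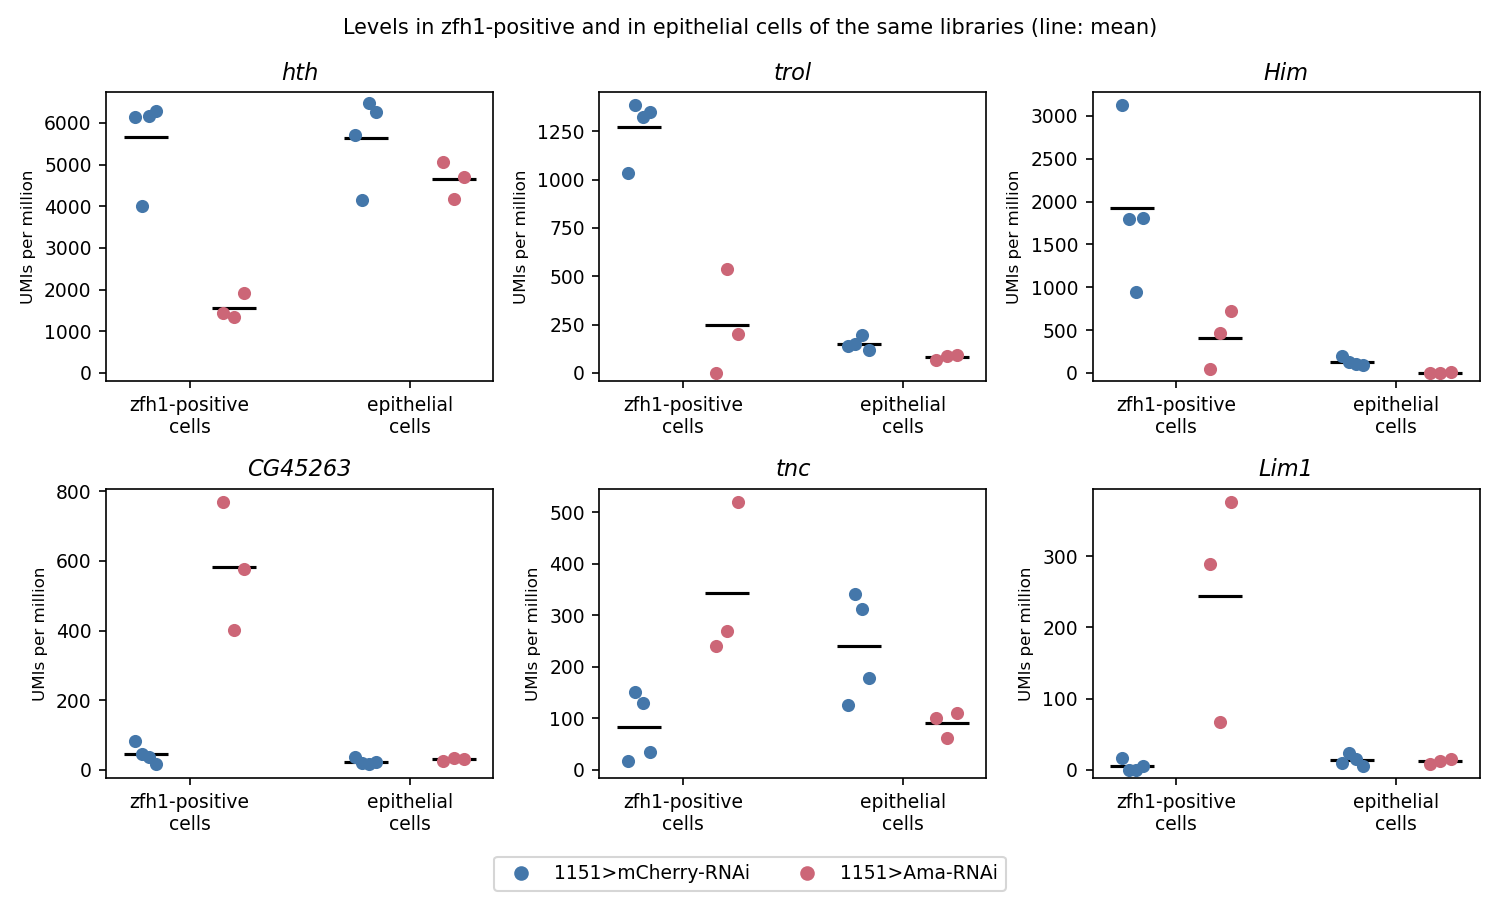
CPM (y axis) in the members and in epithelial cells of the same libraries for 6 genes; points are libraries and lines are means. The means of hth were 5651 and 1565 in members but 5651 and 4648 in epithelial cells, and those of CG45263 were 45.0 and 584 against 23.6 and 29.8.

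Of the 38 genes 15 had a positive interaction, Him and 14 genes whose mean CPM was higher in members labelled 1151>Ama-RNAi, whether or not they passed the test there. CG45263 (3.27 ± 0.55), Act42A (2.24 ± 0.43), GstD1 (1.10 ± 0.30) and ct (1.63 ± 0.31) were among them. In members ct did not pass the test and its libraries overlapped. In epithelial cells it was at a mean of 122 CPM in control and 62.6 in the libraries labelled 1151>Ama-RNAi, and this fall is part of its interaction.

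Several of the others had few UMIs in members. The filter of this test could admit a gene on the counts of 1 group alone. Genes near 0 in control members may thus have entered through the group where they were high. Their interactions, p-values and co-occurrence with ct, vg and Him are given as a description. The homeobox gene Lim1 (X:8756539-8805804, minus strand) had 1, 0, 0 and 1 UMIs in control and 6, 1 and 13 in the libraries labelled 1151>Ama-RNAi (interaction 5.91 ± 0.99, adjusted p = 1.53e-06 by edgeR). NijA, a Ninjurin, had 0, 2, 0 and 2 and 2, 4 and 11 (4.52 ± 0.75), and tnc had 1, 27, 11 and 6 and 5, 4 and 18 (3.23 ± 0.47). Of 20 members labelled 1151>Ama-RNAi with tnc 16 had ct, of 12 with NijA 9 had it and of 11 with Lim1 8 had it, and none of these had vg or Him. In all 76 members 38 had ct. Other genes of the set went differently, with ct in 7 of 16 members with Npc2a, 3 of 7 with CDase, 1 of 6 with CG5854 and 0 of 4 with dpr17. In control 41 members had tnc, of which 18 had ct.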

How the data were processed

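The authors aligned Drop-seq reads and deposited raw UMI counts per gene and barcode (BDGP6, STAR and FastQC are named in the submitters' processing notes). Library totals were between 1335977 and 2947813 UMIs in the 7 libraries compared. Barcodes with 200 to 2500 genes were kept, as in the study's first filter, and no doublet caller was run, but cells with UMIs of both classes were left out. Members and gene lists were chosen with earlier results of these data known. Counts of members were summed per library and tested in edgeR 4.0.16 (R 4.3.3, TMM, filterByExpr, glmQLFit, glmQLFTest, Benjamini-Hochberg), with the library as a block in the test against epithelial cells, and were checked in DESeq2 1.42.0. The test was checked on simulated data, in which 100 of 816 genes were changed by 1 on the log2 scale and 100 by 2. It recovered 34% of the former and 84% of the latter. Of 616 unchanged genes 8 were called. With so many changed genes the adjustment is more lenient than in the data, where 18 passed, so that recovery there may be lower. A gene that did not pass can thus have changed by 2 or more. The fitted change of Con, for example, was larger than 2 without passing. Shares were compared by exact permutation (scipy 1.17.1). The share of cells that were members at 400 UMIs comes from 1 random draw, and shares of members with a gene are expected values of drawing without replacement. The expected values replaced single random draws after the draws had been seen, because 3 draws differed in whether the ct shares overlapped. Named genes are those of the lists and the 10 largest changes in each direction among called genes without overlap, and others were chosen after their values were seen. Coordinates are from the annotation of BDGP6, in which 40 of 48 symbols matched.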

Additional observations from a re-analysis of the deposited data

Results flagged for a closer look

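In 3 of 42 groups of 4 control libraries that were examined, 1 library stood apart by its gap to the nearest other library as a share of the range, which chance gives in about 1 of 20 groups. For hth the share was 0.939, with replicate 5 low in a range of 3996 to 6288 CPM. For trol it was 0.833, with replicate 1 low between 1036 and 1384, and for Ama it was 0.834, with replicate 1 low between 33.4 and 176.

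The effect of the label differed between members and epithelial cells in 38 genes, and the values are the log2 difference between both effects. It was negative for hth (-1.79), 28SrRNA-Psi:CR45855 (-2.48), tna (-1.15), Btk29A (-3.95), SKIP (-3.80), trol (-2.04), Argk (-2.95), vg (-1.99), sd (-1.20), nkd (-1.37), drl (-3.71), dm (-0.80), CG15628 (-3.03), brat (-1.08), SkpA (-2.63), CG34380 (-1.88), Sh3beta (-1.24), Hsc70Cb (-1.07), chrb (-1.09), A2bp1 (-0.86), h (-1.57), scyl (-0.90) and Hsp68 (-0.90). The gene sd encodes the DNA-binding partner of Vestigial and dm encodes Myc.

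It was positive for Him (3.14), tnc (3.23), NijA (4.52), Lim1 (5.91), CG45263 (3.27), ct (1.63), Act42A (2.24), CG3168 (4.29), RapGAP1 (1.91), Dtg (3.31), CDase (4.36), dpr17 (8.47), Npc2a (3.71), CG5854 (4.32) and GstD1 (1.10). The gene dpr17 had 0 UMIs in control members, so that its fitted value depends on the prior count and is no bound. Lim1, NijA, CDase and CG5854 were also near 0 there. Such genes may have passed the filter through the group where they were high, and their values are a description.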

How the results depend on the processing

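All 18 genes called in the members kept their direction in every alternative that tested them, but the number called moved. It was 55 of 9642 genes without a filter on low counts, 10 of 494 with zfh1 at 2 or more UMIs, 5 of 407 in 1 draw at 400 UMIs per cell, 5 of 595 when every gene of the epithelial list was also at 0, 11 without cells with a hemocyte UMI, 12 in DESeq2 and 25 with 8 wild-type libraries as control. With each library left out it was between 7 (without 1151>Ama-RNAi replicate 5) and 45 (without 1151>mCherry-RNAi replicate 1), and 10 without 1151>Ama-RNAi replicate 1. The share of higher calls was 27.8%, against 41.7% in DESeq2 and 52.0% with 8 wild-type libraries. Calls of hth and CadN held in all 16 alternatives and that of CG45263 in all 15 that tested it, those of vg and trol in 15 of 16, whereas Him and GstD1 were called in 9 of 16, 28SrRNA-Psi:CR45855 in 7 of 16, CG9650 in 5 of 16, Argk in 5 of 13, vsg in 5 of 12, drl in 4 of 10 and rdx in 4 of 15. Some genes without a call in the main test were called in alternatives. These were E(spl)m6-BFM in 4 of 16, dm in 2 of 16, tnc in 2 of 14, LanB1 in 1 of 15 and Nrt in 1 of 11. The genes ct, twi, Ama, LanA and BM-40-SPARC were called in none. The cause of these differences was not tested. For the difference from epithelial cells, 53 genes were called without a filter and between 19 (without 1151>mCherry-RNAi replicate 5) and 77 (without 1151>mCherry-RNAi replicate 1) with a library left out, 20 without 1151>Ama-RNAi replicate 1, 25 without 1151>mCherry-RNAi replicate 7 and 57 without 1151>Ama-RNAi replicate 5. Against 8 wild-type libraries the share of members differed by -11.0 percentage points (exact permutation p = 0.0121).

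With the number in the label as a replicate block, 10 genes were called, 9 of them among the 18. The groups share only numbers 1 and 5, whose deviations correlated at 0.262 and -0.027, and the labels name no shared batch.

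At equal depth the ct shares changed with the draw. The expected shares overlapped, as did those of 2 single draws (8.33% to 41.2% and 16.7% to 44.4% of members labelled 1151>Ama-RNAi, against 16.2% to 23.0% and 14.7% to 20.3% in control), whereas the remaining draw gave 25.0% to 29.4% against 16.2% to 21.4%, without overlap. With 76 members labelled 1151>Ama-RNAi, genes of low expression could not be tested.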
